A study of Mus musculus with 3 samples.

Results

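The genes described here are 6 receptors through which growth factors act on myeloid cells, Csf1r, Csf2ra, Csf2rb, Csf2rb2, Csf3r and Flt3, and Csf1, the ligand of Csf1r. They were chosen by gene symbol, and all 7 were found, each symbol once, among the 55401 genes listed in the deposited count matrices. The counts come from leukocytes of YUMM1.7 melanoma grafts, a transplantable mouse melanoma line, grown for 18 days after 500000 cells were injected under the skin of mice aged 4, 12 or 20 months. All 3 ages received the same line. Per the labels, 7 mice were used at each age, live cells (DAPI negative) carrying CD45.2 were sorted from collagenase-digested tumours, and PIP-seq 3′ libraries were made from droplets formed without a microfluidic chip. The labels do not state the strain or sex of the mice, or whether cells of the 7 mice were pooled. There was 1 library per age, so age and library cannot be told apart, and no difference between ages has a replicate check or a test.

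CSF1R is the receptor tyrosine kinase on which monocytes and macrophages depend, and it binds CSF1 and IL-34. The receptor for GM-CSF joins a ligand-specific alpha chain, encoded by Csf2ra, with the beta chain encoded by Csf2rb, which the receptors for IL-3 and IL-5 also use. Mice carry a further beta chain, Csf2rb2, which serves the IL-3 receptor. CSF3R is the receptor for G-CSF and is best known from neutrophils, and FLT3 is the receptor tyrosine kinase through which FLT3 ligand sustains dendritic cells and their progenitors.

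Cells with counts numbered 14393 in the 4-month, 14653 in the 12-month and 14684 in the 20-month library, and the counts summed to 110371225, 127850782 and 119873564. After filtering, 13529, 13774 and 13803 cells were kept, with median counts per cell of 6726, 7328 and 6863. The libraries shared at most 4 cell barcodes in any pair. Cells were clustered without the 7 genes and without the 60 related genes counted below. Clusters were named from fixed markers as macrophage-like, monocyte-like and so on. In each class most or all of its markers were higher than in the other cells. This held for 10 of 10 in macrophage-like cells and 9 of 10 in type 2 dendritic cell-like and NK-like cells. The same markers chose the names, so these counts describe the classes and are no independent check of them. The T-like cells left unnamed include clusters whose highest score was on the NK markers, the largest of 1692 cells. Levels are given as CPM, the counts of a gene scaled to the total counts of its class. Ptprc, which encodes CD45, ran at 113 to 135 CPM in the fibroblast-like cells against 459 to 563 in macrophage-like cells. Intervals are 95% intervals (exact Poisson for levels, exact binomial for shares and ratios) and cover counting error only. Because a 3′ kit reads only transcript ends, levels are compared between cells and not between genes.

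**Figure D1:**
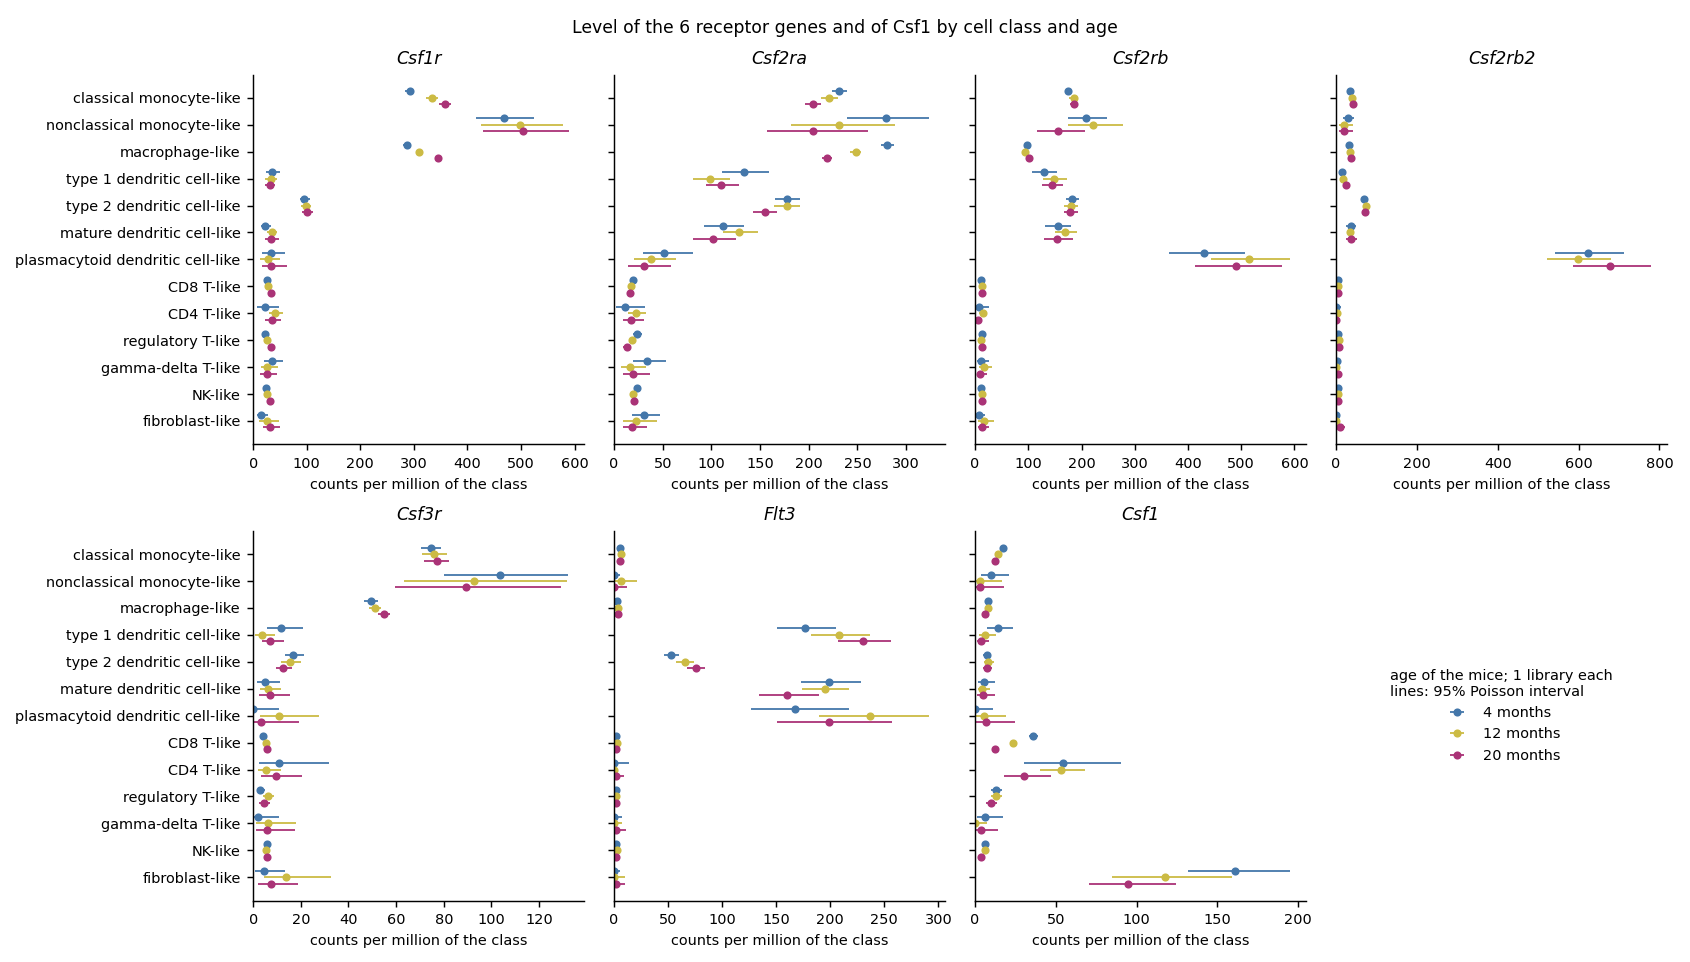
Level of each gene (CPM of the class, x axis, linear axis) in 13 cell classes (y axis) in the libraries of mice aged 4, 12 and 20 months; points are class totals and lines 95% Poisson intervals. Csf1r, Csf2ra and Csf3r are high in monocytes and macrophages, Csf2rb and Csf2rb2 are highest in plasmacytoid dendritic cells, Flt3 is high in the 4 dendritic cell classes, and Csf1 is high in fibroblasts, CD4 and CD8 T cells.

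Csf1r marked the monocytes and macrophages of these tumours. Its level was 287 CPM at 4 months, 309.9 at 12 months and 346 at 20 months in macrophage-like cells, and 292, 334 and 358 CPM in classical monocyte-like cells. The highest level in each library was in nonclassical monocyte-like cells, the patrolling monocytes of blood vessels, at 468, 497 and 504 CPM in 107, 49 and 46 cells. Their intervals lay above those of macrophage-like and classical monocyte-like cells in each library. Type 2 dendritic cell-like cells had 95.7, 98.3 and 101.4 CPM, with the interval below that of macrophages. The few neutrophil-like cells had 329.9, 73.3 and 45.7 CPM from 13, 7 and 2 counts. In type 1, mature and plasmacytoid dendritic cell-like cells Csf1r ran between 22.1 and 35.3 CPM, close to the 24.2 to 33.2 CPM of CD8 T-like and NK-like cells, and the intervals of these dendritic cells overlapped those of the lymphocytes. Monocytes and macrophages together held 87.2, 83.7 and 85.8% of all Csf1r counts.

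Both monocytes and macrophages had more Csf1r in the 2 older libraries. In macrophage-like cells the log2 ratio to the 4-month library was 0.11 (95% interval 0.06 to 0.15) at 12 months and 0.27 (0.23 to 0.31) at 20 months. Classical monocyte-like cells had 0.19 (0.13 to 0.26) and 0.29 (0.23 to 0.35). After each cell was thinned to 1000 counts, a Csf1r count was present in 25.3, 25.7 and 29.0% of macrophage-like cells, and in 2.79, 2.63 and 3.73% of T-like cells, which should lack the gene. Without thinning the shares were 86.6, 89.6 and 90.5% of macrophage-like cells, whose median depth was 8275, 9181 and 8286 counts, and 14.04, 17.6 and 19.4% of T-like cells, whose median depth was 5084, 5967 and 5769 counts.

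The difference in Csf1r was shared by the parts of these classes. At 20 months it was above the 4-month level in 11 of 11 sub-clusters of monocytes and macrophages, with the interval above 0 in 9 of them. In the macrophage sub-cluster led by Pf4 and Cd81 it was 240.7, 287 and 304.5 CPM, and in the monocyte sub-cluster led by Vcan and Slpi it was 233, 277 and 286 CPM, and these were the lowest 2 sub-clusters at 20 months. The widest difference, 304, 436 and 584 CPM, was in a macrophage sub-cluster led by CT010467.1 that held only 60, 39 and 42 cells. The summed level of the 10 macrophage markers in macrophage-like cells also differed between the libraries, at 10175, 11911 and 15212 CPM, and none of the 10 was at 0. Its part in the Csf1r difference was not tested. The sub-clusters come from the same libraries and are no replicates of one another. Csf1r was also higher at 20 than at 4 months in 5 of 5 sub-clusters of CD8 T-like cells, 2 with the interval above 0. Csf1r lies on chromosome 18 at 61100598 to 61132149 on the plus strand (GRCm38, GENCODE M21), and its 3′ end overlaps Hmgxb3 on the opposite strand. Whether the counting used strand is not given in the sources used here, so reads of the 2 genes may not be separated.

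Csf1, the ligand, was higher in fibroblasts and in some T cells than in monocytes, macrophages and dendritic cells. The 51, 31 and 46 fibroblast-like cells had 161, 117.5 and 94.8 CPM at 4, 12 and 20 months, from 105, 42 and 52 counts. CD4 T-like cells had 54.6, 53.0 and 30.004 CPM in 41, 139 and 86 cells. CD8 T-like cells, the largest class, had 36.0, 23.5 and 12.5 CPM. They held 42.4, 43.4 and 36.2% of all Csf1 counts of the libraries. The cells had been sorted for CD45.2, so these shares do not describe the whole tumour. The few fibroblast-like cells that passed the sort may not stand for its fibroblasts. Classical monocyte-like cells had 17.4, 14.4 and 12.5 CPM, regulatory T-like cells 12.7, 12.9 and 9.57 CPM, macrophage-like cells 8.08, 8.17 and 6.07 CPM and NK-like cells 5.94, 5.90 and 3.43 CPM. The CD8 interval lay above that of classical monocytes at 4 and 12 months and overlapped it at 20 months. The 7 neutrophil-like cells at 4 months had the highest level there, 203 CPM (87.6 to 400.0) from 8 counts, and those at 12 and 20 months had 3 and 0 counts.

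In CD8 T-like cells Csf1 was the only gene of the 7 at least 1.5-fold apart between ages. Against the 4-month library its log2 ratio was -0.62 (-0.77 to -0.46) in the 12-month and -1.53 (-1.72 to -1.35) in the 20-month library. Among all genes with at least 50 counts in CD8 T-like cells, 12.0% at 12 months and 13.9% at 20 months were at least 1.5-fold apart. By that limit 1 of 7 is near the background. The share of genes as far apart as Csf1 itself was not counted. A Csf1 count was present in 3.66, 2.27 and 1.33% of CD8 T-like cells thinned to 1000 counts, and in 16.2, 12.2 and 6.39% without thinning. In macrophage-like cells the thinned shares were 0.945, 0.667 and 0.475%, and those without thinning 6.30, 7.72 and 4.69%. When each library was clustered and named on its own, the log2 ratios were -0.081 at 12 months and -0.95 at 20 months, and the cause of the smaller 12-month ratio was not tested.

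**Figure D2:**
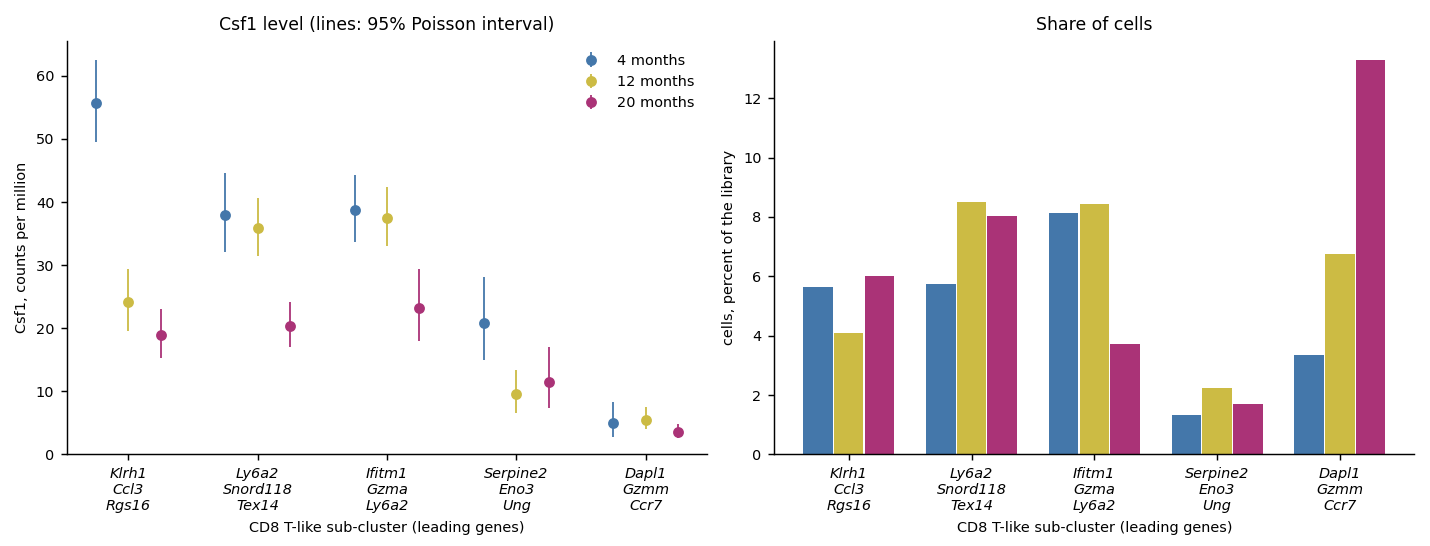
Left, Csf1 level (CPM, y axis) in 5 sub-clusters of CD8 T-like cells, named by their leading genes, at 4, 12 and 20 months, with 95% Poisson intervals; right, each sub-cluster as a percentage of the cells of its library. Csf1 was lower at 20 than at 4 months in all 5 sub-clusters, and the sub-cluster with the lowest Csf1, led by Dapl1, Gzmm and Ccr7, grew from 3.36 to 13.3% of cells.

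Within the CD8 T-like cells, Csf1 was highest at 4 months in the sub-cluster led by Klrh1 and Ccl3, with 55.7, 24.2 and 18.9 CPM. Those led by Ly6a2 and by Ifitm1 had 38.0, 35.9 and 20.4 CPM and 38.7, 37.5 and 23.2 CPM, with the 4-month and 12-month intervals overlapping and the 20-month interval below both. The sub-cluster led by Dapl1, Gzmm and Ccr7, the last a homing receptor of naive and memory T cells, had 5.02, 5.51 and 3.56 CPM and made up 3.36, 6.74 and 13.3% of the library. At 12 months Csf1 was lower than at 4 months in 4 of 5 sub-clusters, with the interval below 0 in 2, and at 20 months in 5 of 5, with the interval below 0 in 4. With the makeup of the class held at that of the 4-month library, the 20-month log2 ratio was -1.06 in place of -1.53. Among the other classes the 20-month interval lay below 0 in fibroblast-like cells (-0.77, -1.27 to -0.27), classical monocyte-like cells (-0.48, -0.78 to -0.19), NK-like cells (-0.79, -1.33 to -0.28), macrophage-like cells (-0.41, -0.70 to -0.13) and type 1 dendritic cell-like cells (-1.81, -3.50 to -0.32, from 13 and 6 counts). It included 0 in CD4 T-like cells (-0.86, -1.92 to 0.22), regulatory T-like cells (-0.41, -1.08 to 0.24), unnamed T-like cells (-0.39, -0.81 to 0.03) and type 2 dendritic cell-like cells (0.08, -0.68 to 0.84). Over all cells of the library Csf1 was 16.2 CPM at 4 months and 9.08 CPM at 20 months. The part of background in the low levels of NK-like and macrophage-like cells was not tested.

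Csf2ra, the alpha chain of the GM-CSF receptor, was highest in monocytes and macrophages. It was lower in type 1, type 2 and mature dendritic cells and lower still in plasmacytoid dendritic cells. Macrophage-like cells had 280.5, 248 and 219 CPM at 4, 12 and 20 months, classical monocyte-like cells 231, 221 and 204 CPM and nonclassical monocyte-like cells 279, 230.7 and 204 CPM. Type 2 dendritic cell-like cells had 178, 177 and 155 CPM, mature dendritic cell-like cells 112, 129 and 101 CPM and type 1 dendritic cell-like cells 134, 98.4 and 110.1 CPM. Plasmacytoid dendritic cell-like cells were the lowest of the dendritic cell and monocyte classes, at 50.9, 37.7 and 30.8 CPM from 17, 14 and 9 counts. CD8 T-like and NK-like cells ran between 16.8 and 23.8 CPM. At 20 months the levels of these lymphocytes lay within the plasmacytoid interval, and at 12 months the NK-like interval overlapped it. The interval of macrophage-like cells lay above that of classical monocyte-like cells in each of the 3 libraries.

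Csf2ra was lower at 20 than at 4 months, in the direction opposite to Csf1r. Relative to 4 months, macrophage-like cells of the 12-month library had a log2 ratio of -0.18 (-0.22 to -0.13) and those of the 20-month library -0.36 (-0.40 to -0.31). With all monocytes and macrophages taken as 1 class the 12-month ratio was -0.12. At 12 months the ratio was -0.07 (-0.14 to 0.01) in classical and -0.28 (-0.68 to 0.12) in nonclassical monocyte-like cells, -0.44 (-0.83 to -0.06) in type 1 and 0.20 (-0.13 to 0.55) in mature dendritic cell-like cells, and 9 of 11 monocyte and macrophage sub-clusters were lower, 4 with the interval below 0. In classical monocyte-like cells the 20-month ratio was -0.18 (-0.25 to -0.11), in nonclassical monocyte-like cells -0.45 (-0.89 to -0.03), and over all dendritic cell-like cells -0.22 (-0.35 to -0.09). At 20 months 10 of 11 monocyte and macrophage sub-clusters were below their 4-month level, 9 with the interval below 0, and the exception was the small one led by CT010467.1. Csf2ra was also lower in 5 of 5 sub-clusters of CD8 T-like cells, 0 with the interval below 0. The share of macrophage-like cells with a Csf2ra count, after thinning to 1000 counts, was 25.2, 22.9 and 20.0%, against 1.97, 1.89 and 1.66% of T-like cells. Without thinning the shares were 85.9, 85.7 and 81.2% of macrophage-like cells and 11.2, 11.4 and 10.0% of T-like cells. Csf2ra lies on chromosome 19 at 61223957 to 61228429 on the minus strand.

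**Figure D3:**
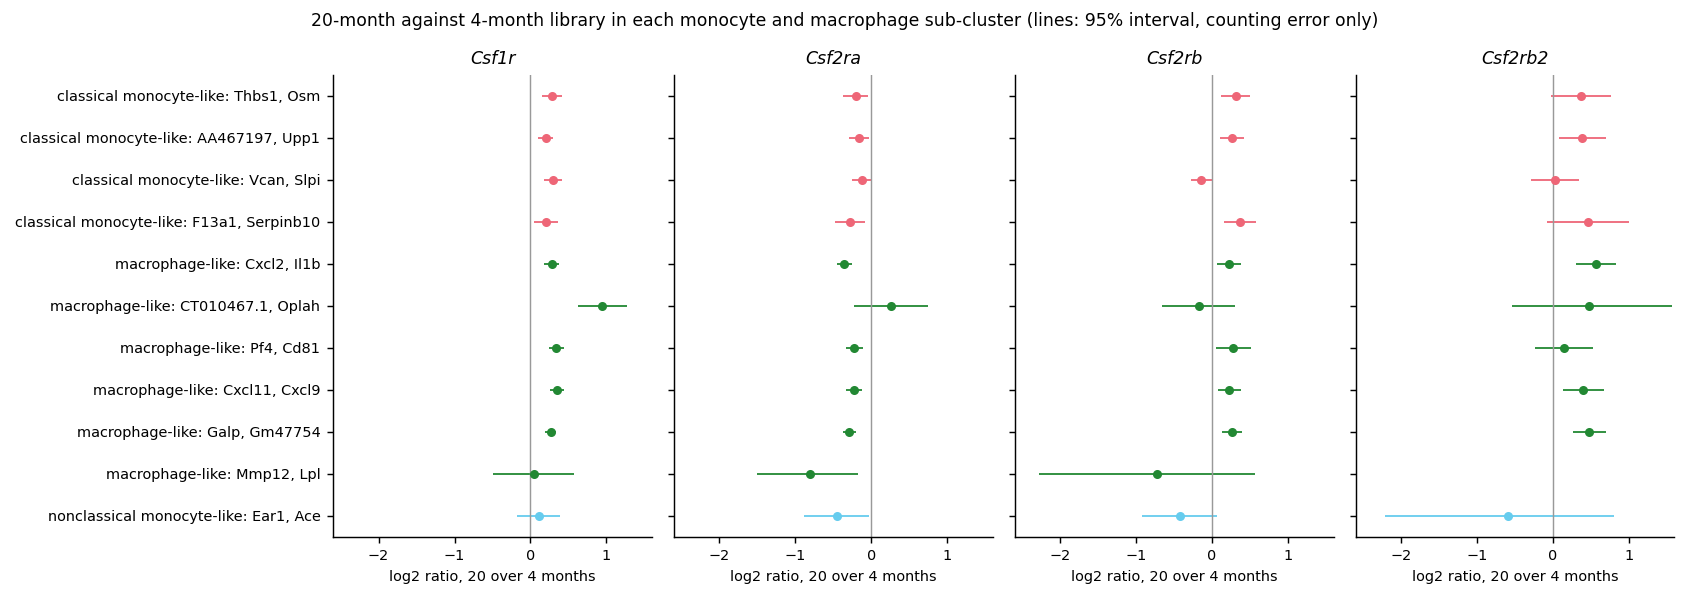
Log2 ratio of the 20-month to the 4-month library (x axis) for Csf1r, Csf2ra, Csf2rb and Csf2rb2 in 11 sub-clusters of monocytes and macrophages (y axis, named by class and 2 leading genes), with 95% intervals for counting error. Csf1r is above 0 in 11 of 11 and Csf2ra below 0 in 10 of 11, while Csf2rb has 7 above and 4 below; Csf2rb2 has no value in the Mmp12 sub-cluster, where counts were too few.

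At the level of single cells Csf1r and Csf2ra were found together about as often as their separate frequencies gave. In macrophage-like cells thinned to 2000 counts, 19.2, 19.1 and 18.3% of cells had a count of both, and the product of the separate shares was 18.6, 18.2 and 17.3%. For Csf2ra with Csf2rb, the 2 chains of the GM-CSF receptor, 8.01, 6.64 and 6.53% of macrophage-like cells had both, and the product was 7.47, 6.40 and 6.16%. In classical monocyte-like cells this pair was found in 10.4, 10.5 and 9.68%, with a product of 9.48, 10.1 and 10.4%. These shares describe counts at this depth and not how many cells carry both proteins.

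The upstream sequences of 3 of the receptors are shown because their genes had contrasting patterns, Csf2ra over most myeloid cells, Csf2rb2 at its highest level in plasmacytoid dendritic cells and Flt3 in all dendritic cells. RefSeq start sites on GRCm38.p6 were available for 5 of the 7 genes, and each sequence is the 250 bases before the start, 5′ to 3′ on the gene's own strand. Capitals mark GAGGAA or its reverse complement TTCCTC, a core of the sites bound by the myeloid factor PU.1 (Spi1).

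Csf2ra, chr19:61228419-61228668, minus strand: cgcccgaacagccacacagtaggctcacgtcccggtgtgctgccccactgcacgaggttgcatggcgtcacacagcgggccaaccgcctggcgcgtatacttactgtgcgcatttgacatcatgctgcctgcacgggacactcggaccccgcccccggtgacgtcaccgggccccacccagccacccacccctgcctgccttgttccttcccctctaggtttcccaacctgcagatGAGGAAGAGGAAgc
Csf2rb2, chr15:78305722-78305971, minus strand: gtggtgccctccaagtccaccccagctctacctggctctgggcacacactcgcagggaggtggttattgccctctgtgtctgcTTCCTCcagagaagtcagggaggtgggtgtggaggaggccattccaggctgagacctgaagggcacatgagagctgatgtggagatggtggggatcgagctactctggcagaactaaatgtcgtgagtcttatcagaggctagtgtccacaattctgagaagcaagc
Flt3, chr5:147400490-147400739, minus strand: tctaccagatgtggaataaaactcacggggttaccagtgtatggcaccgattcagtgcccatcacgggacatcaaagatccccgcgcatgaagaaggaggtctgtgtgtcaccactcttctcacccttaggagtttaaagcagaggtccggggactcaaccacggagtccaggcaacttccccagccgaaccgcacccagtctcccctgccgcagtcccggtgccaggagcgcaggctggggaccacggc

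Counted from the RefSeq starts, Csf2ra had 2 matches side by side, 14 and 8 bases before. Csf2rb2 had 1 match 167 bases before and Csf3r 1 match 86 bases before. These letters were not in the windows of Flt3 and Csf1. GENCODE M21 places the starts of Csf2ra (61228429) and Csf3r (126024550) inside these windows. By that annotation the Csf3r match lies within the gene. Of the Csf2ra matches, the nearer lies within the gene and the other spans its start. GAGGAA on either strand was in 23.3% of the windows of 32851 RefSeq starts. A core of the sites of RUNX factors, TGTGGT or ACCACA, was in none of the 5 windows and in 4614 of all of them. A match is a description of the letters and not of binding.

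Csf2rb, the beta chain common to the GM-CSF, IL-3 and IL-5 receptors, was highest in plasmacytoid dendritic cell-like cells, at 431, 514 and 489.9 CPM in 61, 57 and 52 cells. The monocytes and the other dendritic cells formed a middle group. Nonclassical monocyte-like cells had 209, 222 and 156 CPM, classical monocyte-like cells 175, 185 and 186 CPM, type 2 dendritic cell-like cells 183, 179 and 179 CPM, mature dendritic cell-like cells 155, 169.8 and 154 CPM and type 1 dendritic cell-like cells 129.5, 149 and 145 CPM. The 44 mast cell- or basophil-like cells had 167.5, 174 and 226 CPM. Macrophage-like cells were lower than the monocytes and dendritic cells, at 98.1, 93.8 and 101.4 CPM, with the interval below that of each of those classes in each library. Csf2ra and Csf2rb thus differed in their order, the alpha chain being higher in macrophages than in classical monocytes and the beta chain lower. CD8 T-like and NK-like cells had 10.8 to 12.9 CPM.

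Over all macrophage-like cells Csf2rb differed little between ages, with log2 ratios of -0.06 (-0.14 to 0.01) at 12 months and 0.05 (-0.03 to 0.12) at 20 months. Single sub-clusters of monocytes and macrophages differed more. At 20 months 7 of 11 monocyte and macrophage sub-clusters had a ratio above 0 with the interval above 0, between 0.22 and 0.37. The macrophage sub-clusters among them were those led by Cxcl2, Pf4, Cxcl11 and Galp, and the others were classical monocytes. The monocyte sub-cluster led by Vcan and Slpi was lower, at 220.5, 190.6 and 199.8 CPM, a log2 ratio of -0.14 (-0.28 to -0.01). The lowest Csf2rb among the sub-clusters with at least 100 cells per library was in the macrophages led by Pf4 and Cd81, at 46.8, 54.9 and 56.6 CPM, and these made up 3.16, 4.196 and 8.07% of their libraries. With the makeup of the class held at that of the 4-month library, the 20-month ratio was 0.22 in place of 0.05, and with monocytes and macrophages as 1 class it was -0.089. The 12-month ratio was 0.022 when genes specific to 1 library were kept in the sub-clustering, so no direction for the whole class is drawn.

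Csf2rb2, the beta chain of the IL-3 receptor, had its highest level in plasmacytoid dendritic cells. Its level there was 622 CPM (541 to 713), 597 CPM (521 to 681) and 678 CPM (587 to 779.7) at 4, 12 and 20 months, from 208, 222 and 198 counts, with the 3 intervals overlapping. Mast cell- or basophil-like cells had 112, 242 and 75.3 CPM from 10, 50 and 9 counts, and type 2 dendritic cell-like cells 68.4, 74.2 and 72.9 CPM. Classical monocyte-like cells had 35.3, 40.3 and 42.6 CPM, macrophage-like cells 31.8, 35.0 and 37.9 CPM, mature dendritic cell-like cells 36.6, 35.0 and 36.5 CPM and type 1 dendritic cell-like cells 14.98, 17.2 and 23.7 CPM. CD8 T-like and NK-like cells had 4.27 to 5.62 CPM. The plasmacytoid cells were few, and they held 9.47, 9.16 and 7.35% of all Csf2rb2 counts, while macrophage-like cells held 36.2, 42.1 and 47.5%. A Csf2rb2 count was present in 34.4, 52.6 and 51.9% of them after thinning to 1000 counts and in 88.5, 93.0 and 94.2% without thinning, at median depths of 5089, 5779 and 5182 counts, while T-like cells had 0.559, 0.582 and 0.695% and 2.501, 3.63 and 3.59%. After thinning to 2000 counts, 32.8, 40.4 and 46.2% of the plasmacytoid cells had both beta chains, and the product of the separate shares was 31.9, 42.1 and 42.6%.

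Csf2rb2 was higher in the macrophages and monocytes of the older libraries. In macrophage-like cells the 12-month log2 ratio was 0.14 (0.00 to 0.27) and the 20-month ratio 0.25 (0.12 to 0.38), while classical monocyte-like cells had 0.19 (0.01 to 0.37) and 0.27 (0.10 to 0.45). With the makeup of the macrophages held at 4 months, the 20-month ratio was 0.44. Among the macrophage sub-clusters the lowest level again was in that led by Pf4 and Cd81, at 17.8, 17.2 and 19.6 CPM. Of the 10 sub-clusters with enough counts, 9 were above their 4-month level at 20 months, 4 with the interval above 0.

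**Figure D4:**
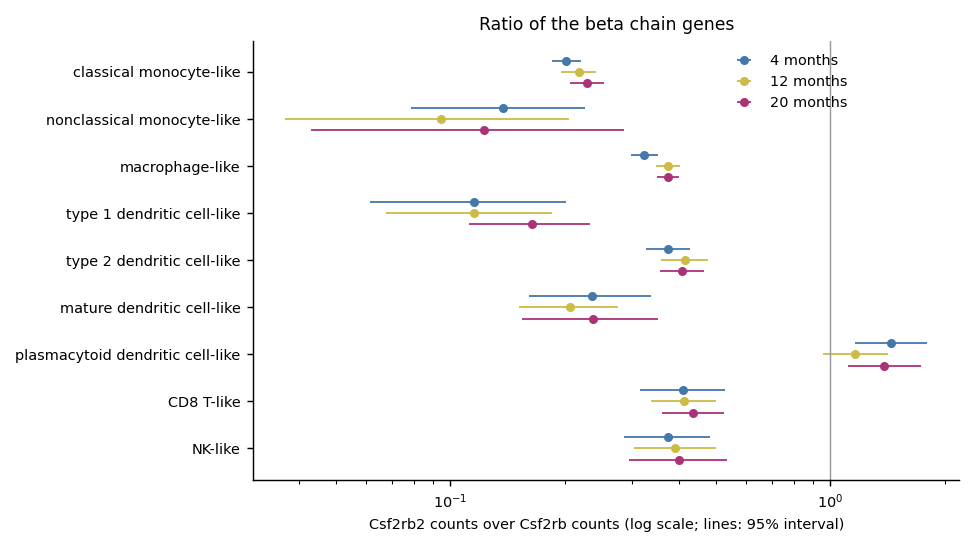
Csf2rb2 counts divided by Csf2rb counts (x axis, log scale) in 9 cell classes (y axis) at 4, 12 and 20 months, with 95% intervals. Plasmacytoid dendritic cells lie around or above 1 (1.44, 1.16 and 1.38), and the other 8 classes lie below 0.5.

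The balance of the 2 beta chains differed between plasmacytoid dendritic cells and the other classes with many counts. The ratio of Csf2rb2 to Csf2rb counts was 1.44, 1.16 and 1.38 in them, against 0.32, 0.37 and 0.37 in macrophage-like cells, 0.20, 0.22 and 0.23 in classical monocyte-like cells and 0.37, 0.41 and 0.41 in type 2 dendritic cell-like cells. Type 1 dendritic cell-like cells had 0.12, 0.12 and 0.16, and nonclassical monocyte-like cells 0.14, 0.09 and 0.12. The interval of the plasmacytoid cells did not reach that of any of the other 8 classes plotted, in any library. The few mast cell- or basophil-like cells, at 0.67, 1.39 and 0.33, and regulatory T-like cells, at 0.29, 0.68 and 0.67, had wide intervals that overlapped the plasmacytoid one in some libraries. A ratio of counts of 2 genes depends on how well each 3′ end is captured, so its size has no meaning of its own and only the order of the classes is read.

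The beta chain genes are close copies, which bears on how far their reads can be separated. Csf2rb (chromosome 15, 78325752 to 78353847, plus strand) and Csf2rb2 (78282507 to 78305721, minus strand) lie 20030 bases apart and point away from each other. Their coding sequences were 92.9% identical over 2697 aligned positions. The 96 bases below, from the end of the coding sequence of Csf2rb2 and the matching stretch of Csf2rb, show how alike they are, with the 7 bases that differ in capitals. Csf2rb2 ends there in a stop codon, and Csf2rb reads on for 54 coding bases.

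Csf2rb, chr15:78349036-78349131, plus strand: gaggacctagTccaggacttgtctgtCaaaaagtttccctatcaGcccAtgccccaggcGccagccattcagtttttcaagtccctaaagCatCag
Csf2rb2, chr15:78284317-78284412, minus strand: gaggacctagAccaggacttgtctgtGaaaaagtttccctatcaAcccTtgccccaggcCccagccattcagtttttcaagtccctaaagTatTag

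The last 1000 bases of the transcripts, where a 3′ kit reads, were 78.2% identical, and none of the 901 windows of 100 bases there was shared. Over the whole transcripts 334 windows were shared, 6.96% of those of Csf2rb and 7.2% of those of Csf2rb2. How the authors' counting treated reads that fit both genes is not given in the sources used here, so the smaller Csf2rb2 levels are uncertain to that extent.

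Csf3r, the G-CSF receptor, was highest, at 4 and 12 months, in the few neutrophil-like cells. The 7, 11 and 4 cells at 4, 12 and 20 months had 939, 597 and 91.3 CPM, with 37, 57 and 4 counts, a log2 ratio at 20 months of -3.36 (-5.31 to -1.88). The summed level of the 10 neutrophil markers ran the other way, at 16976, 93281 and 209518 CPM, with 1, 0 and 1 of the markers at 0, so these cells were not alike between libraries. With 22 cells in all, no difference between ages is read from them. Most Csf3r counts, 87.0, 81.6 and 86.5%, came from monocytes and macrophages. Classical monocyte-like cells had 74.6, 76.1 and 77.0 CPM, nonclassical monocyte-like cells 103.8, 92.9 and 89.3 CPM and macrophage-like cells 49.4, 51.0 and 55.0 CPM, with the interval of macrophages below that of classical monocytes in each library. Dendritic cell-like cells had 13.4, 11.2 and 10.3 CPM, and CD8 T-like and NK-like cells 4.25 to 5.79 CPM. A Csf3r count was present in 7.95, 6.04 and 8.71% of classical monocyte-like cells after thinning to 1000 counts and in 38.4, 42.8 and 42.2% without thinning. T-like cells had 0.340, 0.321 and 0.560% and 2.31, 3.79 and 3.61%.

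Csf3r did not differ between ages in classical monocyte-like cells by more than counting error, with log2 ratios of 0.03 (-0.10 to 0.16) at 12 months and 0.05 (-0.08 to 0.17) at 20 months. These intervals leave room for a difference of up to 0.17. In macrophage-like cells the 20-month ratio was 0.15 (0.05 to 0.26). Within the monocytes, the sub-cluster led by F13a1 and Serpinb10 was highest, at 117.3, 105.5 and 98.2 CPM, and that led by Vcan and Slpi lowest, at 54.2, 57.2 and 64.0 CPM. The intervals of these 2 did not overlap in any library. Csf3r lies on chromosome 4 at 126024550 to 126044440 on the plus strand.

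Flt3 was the receptor of the dendritic cells. Type 1 dendritic cell-like cells, which present antigen to CD8 T cells, had 177, 208 and 231 CPM, mature dendritic cell-like cells 199, 195 and 160.3 CPM, plasmacytoid cells 168, 237 and 199 CPM and type 2 dendritic cell-like cells 52.5, 65.4 and 75.8 CPM. Type 2 cells lay below the other 3 subsets in each library, and those 3 overlapped one another at 4 and 12 months. Dendritic cells held 69.8, 71.8 and 73.5% of all Flt3 counts. Classical monocyte-like cells had 5.64, 6.40 and 5.11 CPM, macrophage-like cells 2.68, 3.57 and 3.64 CPM and T-like cells 1.83, 2.30 and 2.04 CPM. Flt3 lies on chromosome 5 at 147330741 to 147400489 on the minus strand, and its start is overlapped on the opposite strand by Gm26597.

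Flt3 was higher in the dendritic cells of the older libraries. Over all 4 subsets it was 98.7, 127 and 126 CPM, with log2 ratios of 0.37 (0.22 to 0.52) at 12 months and 0.35 (0.20 to 0.50) at 20 months. By subset, the 12-month ratio was 0.32 in type 2 cells (0.05 to 0.58), 0.23 in type 1 cells (-0.06 to 0.53), -0.03 in mature cells (-0.29 to 0.23) and 0.50 in plasmacytoid cells (-0.00 to 1.01). The 20-month ratio was 0.53 in type 2 cells (0.28 to 0.78) and 0.39 in type 1 cells (0.12 to 0.66), while in mature cells it was -0.31 (-0.64 to 0.01) and in plasmacytoid cells 0.25 (-0.31 to 0.80). With the makeup of the subsets held at 4 months, the 12-month ratio was 0.21. A Flt3 count was present in 9.43, 12.9 and 11.5% of dendritic cells thinned to 1000 counts, and in 0.146, 0.301 and 0.348% of T-like cells. Without thinning the shares were 42.8, 55.9 and 54.3% of dendritic cells, with median depths of 8342, 9481 and 8301 counts, and 1.09, 1.55 and 1.33% of T-like cells. In type 2 cells thinned to 2000 counts, 3, 8 and 13 cells had both Csf1r and Flt3, or 0.647, 2.24 and 2.85%, where the product of the separate shares was 1.30, 2.37 and 2.25%.

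**Figure D5:**
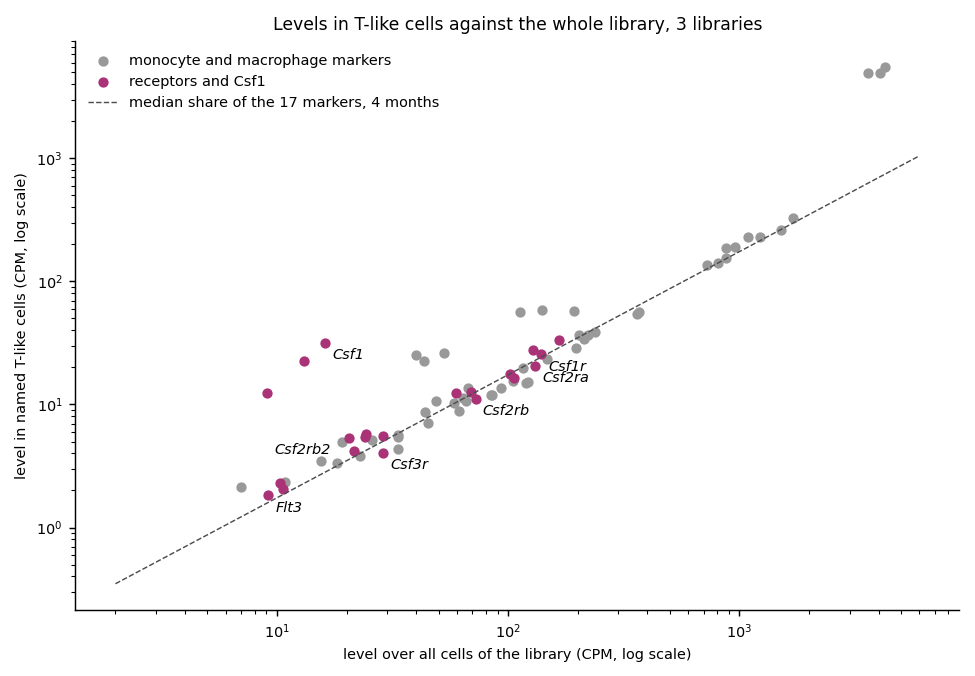
Level in the named T-like cells (y axis, CPM, log scale) against the level over all cells of the library (x axis, log scale) for the 7 genes and 17 monocyte and macrophage markers, each in 3 libraries; the dashed line is the median share of the markers at 4 months, 17.5%. The 6 receptors lie near that line and Csf1 lies above it, with Ly6c2 at the top right.

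In T-like and NK-like cells the levels of the 6 receptors were set beside those of monocyte and macrophage markers. The T-like level was 14.1 to 19.9% of the whole-library level at 4 months, 17.5 to 26.1% at 12 months and 15.5 to 23.6% at 20 months. The median over 17 monocyte and macrophage markers was 17.5, 19.9 and 16.7%. The markers spread widely, with Ly6c2 at 121%, Selenop at 50.7% and Gsr at 49.3% at 4 months. Lying within their range therefore cannot tell background from expression. Csf2rb2, at 26.1% at 12 months, was the receptor farthest above the median. For NK-like cells the receptors had 15.9 to 22.2, 19.1 to 24.4 and 16.2 to 20.8%. Whether lymphocytes express any of the 6 was not tested, and no expression is read from these levels. Csf1 was at 195, 173 and 136% of the library level in T-like cells. The T-like cells left unnamed had 26.0, 31.1 and 49.4 CPM of Csf1r, and the summed level of 10 macrophage markers in them was 543, 794 and 1563 CPM. In CD8 T-like cells that sum was 558, 750.4 and 1019 CPM, beside Csf1r at 26.0, 27.6 and 33.2 CPM.

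In the classes where all genes were compared, no receptor was 1.5-fold apart between ages. In macrophage-like cells 0 of the 7 genes were at least 1.5-fold apart, where 12.4% of all genes with at least 50 counts were at 12 months and 12.0% at 20 months. The same count was 0 of 7 in classical monocyte-like cells, against 12.5 and 10.6% of all genes. It was also 0 of 7 over all dendritic cell-like cells, against 9.81 and 10.8%. At these shares fewer than 1 of 7 genes would pass in any class, so a count of 0 is near the background too. The median log2 ratio of the 7 genes at 20 months was 0.15 in macrophage-like cells, 0.05 in classical monocytes and -0.01 in dendritic cells, beside 0.01, 0.06 and 0.03 over all genes. Some smaller or lymphoid classes held receptors past 1.5-fold, on low levels: in regulatory T-like cells at 20 months the log2 ratio was -0.89 (-1.43 to -0.36) for Csf2ra, 0.60 (0.19 to 1.00) for Csf1r and 1.13 (0.20 to 2.12) for Csf2rb2. In the unnamed T-like cells it was 0.93 (0.70 to 1.16) for Csf1r. The share of all genes past 1.5-fold was not counted in these classes, so these values have no background beside them.

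The other genes of these pathways, 60 in all, were the further ligands and receptors, the kinases and adaptors below them, their inhibitors and the transcription factors of the myeloid lineages. At 20 months in macrophage-like cells 2 of 53 with enough counts were at least 1.5-fold higher and 2 lower, in classical monocyte-like cells 2 of 50 higher and 0 lower, and in dendritic cell-like cells 2 of 45 higher and 1 lower. At 12 months the counts were 3 higher and 1 lower of 53, 4 higher and 2 lower of 51 and 1 higher and 0 lower of 46. In CD8 T-like cells they were 1 higher and 1 lower of 51 at 12 months and 2 higher and 5 lower of 51 at 20 months, beside 12.0 and 13.9% of all genes. These shares are near or below those of all genes in each class. In macrophage-like cells the most abundant of the genes past this fold at 20 months was Maf, a transcription factor of macrophages, at 126 CPM at 4 months and 243 at 20 months, a log2 ratio of 0.95 (0.90 to 1.01). There Kitl, Rnf128 and Lnx1 made up the rest, at 4.00 CPM or less. In classical monocyte-like cells they were Kit, from 2.64 to 4.66 CPM, and Zbtb46, from 2.23 to 3.76 CPM.

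In dendritic cell-like cells Kit, the receptor for stem cell factor and a relative of Flt3 and Csf1r, was 25.8 CPM at 4 months and 46.2 at 20 months, a log2 ratio of 0.84 (0.57 to 1.12). It ran at 56.7, 49.7 and 68.6 CPM in type 1 cells and 25.4, 36.3 and 46.2 CPM in type 2 cells. Socs2, an inhibitor of cytokine signalling and a marker used to name mature dendritic cells, was 155 and 97.8 CPM (log2 ratio -0.66, -0.80 to -0.52), and mature cells made up 137, 169 and 102 of the dendritic cells. Maf was 17.5 and 27.6 CPM, a log2 ratio of 0.66 (0.32 to 1.01).

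Of the ligands, Csf2, which encodes GM-CSF, was highest in the CD4 T-like cells, at 317, 453 and 150 CPM in 41, 139 and 86 cells. This class is a single cluster that Csf2 itself helps to lead, although Csf2 was not used to form it. Gamma-delta T-like cells had 126, 71.8 and 71.3 CPM of Csf2 and NK-like cells 11.2, 11.8 and 7.02 CPM. Flt3l, the ligand of Flt3, was 45.6, 49.2 and 42.8 CPM in CD8 T-like cells and 39.7, 43.2 and 37.5 CPM in NK-like cells, and 8.80, 12.7 and 9.79 CPM in macrophage-like cells. Il34, the other ligand of Csf1r, was at most 1.58 CPM in macrophage-like cells, and its highest level among the myeloid classes, 5.98, 16.1 and 17.1 CPM in plasmacytoid cells, rested on 2, 6 and 5 counts. Csf3, the ligand of Csf3r, had no count in macrophage-like cells and 0, 0 and 5 counts in classical monocyte-like cells. Kitl was highest in fibroblast-like cells, at 59.8, 64.3 and 34.6 CPM, and Il6st, a receptor chain of the same family as Csf3r, was 85.9, 64.3 and 71.1 CPM there. Kit was highest in mast cell- or basophil-like cells, at 581, 575 and 435 CPM.

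The genes most like each member were those with the highest Pearson correlation of log2(CPM + 10) over 21 values, from 7 classes with at least 100 cells in each of the 3 libraries. Values of a library share its depth and preparation, so the correlations are descriptions. For Csf1r they were Tgfbi (r = 0.99), Aldh3b1 and Sirpb1a, and for Csf3r they were Hacd4 (0.99), Klra2 and P2ry12. For Csf2ra they were Il1b (0.99), Pirb and Spi1, for Csf2rb Gcnt2 (0.99), Sowahc and Rtn4, and for Csf2rb2 Prcp (0.98), Fbrsl1 and Myo9a. For Flt3 they were Avpi1 (0.99), Mrtfa and Nectin1. Csf1 had no such close match, the best being Ifi214 (0.81), Selenow and Actn2.

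Among the members themselves Csf1r and Csf3r were most alike (r = 0.98), then Csf2rb and Csf2rb2 (0.96) and Csf2ra and Csf2rb (0.94). Csf1r and Flt3 were not alike (-0.14), and Csf1 was near 0 with Csf1r (0.01). The 100-cell rule leaves out plasmacytoid and type 1 dendritic cells. With classes of at least 40 cells, which gave 12 classes and 36 values, the correlation of Csf1r with Csf3r was 0.96, of Csf2rb with Csf2rb2 0.85, of Csf1r with Csf2ra 0.81 and of Csf2ra with Csf2rb 0.74. That of Csf2ra with Csf2rb2 was 0.38 in place of 0.91. Under that rule the genes most alike were Sirpb1c for Csf1r (0.99), Spi1 for Csf2ra (0.97), Ier5 for Csf2rb (0.97), Igsf6 for Csf3r (0.97) and Ccl3 for Csf1 (0.82). Flt3 had Pkib (0.95), Tnni2 and Herpud1, all different from those above. Csf2rb2 had Tcf4 (0.95), a transcription factor and a marker used to name plasmacytoid dendritic cells, so this match is no independent link to them.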

How the data were processed

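CD45.2-positive cells of 3 melanoma libraries, 1 per age, were analysed from the raw counts per gene and cell that the authors deposited. Reads were aligned with STAR 2.7.10a to GRCm38, per the submitters' processing notes, and whether the counts are molecules or reads is not given in the sources used here. The members and gene lists were chosen with earlier results of these data known.

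Limits of 500 counts and 15% mitochondrial counts were set, which 2 cells exceeded, and the lowest counts of a cell were 3555, 4493 and 4356 at 4, 12 and 20 months. Scrublet scores (scanpy 1.11.5) marked doublets, and the top 6% of each library were removed. The libraries were clustered together (2000 variable genes seen in at least 10 cells, scaled values of at most 10, 30 principal components, 15 neighbours, Leiden resolution 1.0 with igraph 0.11.9), without the 7 members and the 60 pathway genes. Myeloid and T-like cells were clustered again, without 11 genes at least 4-fold above or below both other libraries in myeloid, T and NK clusters alike. That rule and the need for at least 1 own marker among the 10 leading genes were set after clusters had been seen. Clusters were named from 22 marker lists by mean level scaled over clusters. A name needed a score of 0.4, at least 3 markers detected in 10% of cells and no other list with more markers among the leading genes. Other clusters stayed unnamed, and so did any cluster within the T-like cells whose highest score was on the NK list. Clusters forming a class differed in share between ages.

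Raw counts were summed per class and library (Python 3.11.15, scipy 1.17.1, numpy 2.4.6, pandas 2.3.3). With 1 library per age no test was made. Intervals are exact 95% Poisson or binomial intervals. Genes were called at a 1.5-fold difference with at least 50 counts in the 2 libraries together, and shares of cells were taken after thinning to 1000 counts. The interval and the call were tried on simulated counts that held counting error only. That trial says nothing of variation between cells, mice or libraries. The text names the 7 members, the further ligands and receptors, the pathway genes past 1.5-fold at 20 months in myeloid classes, and the 3 genes most like each member, among genes of at least 20 CPM in 1 value. Sequences came from GENCODE M21 transcripts, aligned with Biopython 1.88, and RefSeq. Doublet removal, depth, mitochondrial limit, resolution, naming, clustering, scaling, background, outlying cells and grouping were varied.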

Additional observations from a re-analysis of the deposited data

Results flagged for a closer look

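For Csf3r, the 20-month library moved in opposite directions in different classes: the log2 ratio to 4 months was 0.40 in CD8 T-like cells and 0.15 in macrophage-like cells, with intervals above 0, and -3.36 in neutrophil-like cells, with the interval below 0. The CD8 value compares 4.25 with 5.62 CPM, and the neutrophil value rests on 37 and 4 counts in 7 and 4 cells. The neutrophil-like cells were not alike between libraries, so no difference between ages is read from them. No expression is read from the CD8 level. The difference between the classes was not tested.

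For Csf2rb, sub-clusters of monocytes and macrophages moved in opposite directions at 20 months. The log2 ratio was 0.22 in the macrophages led by Cxcl2 and Il1b, 0.27 in those led by Pf4 and Cd81, 0.23 in those led by Cxcl11 and Cxcl9, and 0.27 in those led by Galp. In classical monocytes it was 0.31 in the sub-cluster led by Thbs1 and Osm, 0.26 in that led by AA467197 and Upp1 and 0.37 in that led by F13a1 and Serpinb10, but -0.14 in that led by Vcan and Slpi. The difference between the sub-clusters was not tested.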

How the results depend on the processing

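No paired analysis was possible because there was 1 library per age. Of 192 alternative values of the 14 log2 ratios between ages, 177 stayed within the counting interval of the main value and 15 moved beyond it, with no change of sign in any ratio whose interval excluded 0. The ranges at 20 months were 0.25 to 0.31 for Csf1r, -0.37 to -0.28 for Csf2ra, 0.22 to 0.44 for Csf2rb2, 0.25 to 0.40 for Flt3 and -2.13 to -0.95 for Csf1. Csf2rb at 20 months ranged from -0.089 to 0.22, and Csf3r in classical monocyte-like cells from -0.016 to 0.089.

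With monocytes and macrophages as 1 class the ratio was -0.12 at 12 and -0.28 at 20 months for Csf2ra and -0.089 at 20 months for Csf2rb. With the sub-cluster makeup held at 4 months, which was chosen after seeing the data, it was -0.28 for Csf2ra, 0.22 for Csf2rb, 0.44 for Csf2rb2 and -1.06 for Csf1 at 20 months, and 0.21 for Flt3 at 12 months. With library-specific genes kept in the sub-clustering, also chosen after seeing the data, the 12-month ratio was 0.022 for Csf2rb and -0.40 for Csf1. For Csf1 in CD8 T-like cells, separate clustering gave -0.081 and -0.95, subtraction of the macrophage level -0.87 and -2.13 at 12 and 20 months, and cells of at least 5000 counts -1.24 at 20 months. The cause was not tested.

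The pathway genes at least 1.5-fold apart numbered 4 and 4 in macrophage-like, 6 and 2 in classical monocyte-like and 1 and 3 in dendritic cell-like cells at 12 and 20 months. With a 2-fold limit they were 1 and 1 in macrophage-like cells and 0 in both other classes at both ages. With no minimum count it was 8 in macrophage-like and 4 in classical monocyte-like cells at 20 months, and 6 and 9 in dendritic cell-like cells at 12 and 20 months. Over all genes at 20 months it was 2000 in macrophage-like, 1486 in classical monocyte-like and 1315 in dendritic cell-like cells, against 714, 517 and 401 at 2-fold and 8129, 9338 and 7306 with no minimum. At 12 months it was 2043, 1743 and 1199, against 688, 490 and 364 at 2-fold and 9367, 9555 and 7260 with no minimum. Size factors shifted log2 ratios by at most 0.083. Depth limits the small classes most: the neutrophil-like, nonclassical monocyte-like, plasmacytoid and mast cell-like cells rest on few counts of each gene.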
